A study of Mus musculus with 20 samples.

Results

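The non-ATPase subunits of the proteasome's regulatory particle were followed in mouse myeloma cells treated with bortezomib. The group comprised 10 genes, Psmd1, Psmd2, Psmd3, Psmd4, Psmd6, Psmd7, Psmd11, Psmd12, Psmd13 and Psmd14, and its members were all probes that the platform annotation assigns to one of these symbols. There were 21 such probes among the 45281 of the array. A filter on dim probes kept 18 of them, which left 9 of the 10 genes to be tested among 11802 genes. Both Psmd3 probes, with mean log2 signals of 6.22 and 6.16, and 1 of the 3 Psmd11 probes, at 6.09, lay below the filter's cut of 6.47.

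The proteasome is the protease that degrades proteins marked with ubiquitin, and bortezomib is a drug that inhibits its catalytic core. A regulatory particle caps the core. Its base holds a ring of ATPases that unfold the substrate, together with scaffold subunits and ubiquitin receptors, and its lid holds the deubiquitinase that removes the ubiquitin chain before the substrate enters the core. Mammalian cells in which the proteasome is inhibited are known to transcribe proteasome genes more strongly, through the transcription factor encoded by Nfe2l1, and plasma cells, which secrete large amounts of antibody, depend heavily on the proteasome.

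RNA came from 2 mouse multiple myeloma lines, 589bm and 595sp, with the genotype Bcl-XL/Myc double transgenic on a strain background of FVBN crossed with BL/6, which all cultures shared. Each line had 1 culture labelled sensitive and 1 labelled resistant to bortezomib, and each of these 4 cultures was measured on 1 Illumina array per time, before (0 h) and 2, 8, 16 and 24 h into treatment with 33 nM bortezomib. The 10 groups of sensitivity and time therefore held 2 arrays each, 1 per line, and p-values treat the lines as replicates. Every culture was a single culture, the promoters of the transgenes are not given in the labels, and no array of untreated cells was taken after 0 h, so drug and time in culture cannot be told apart.

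The array of 589bm resistant cells at 2 h was near blank and was left out. Only 0.144% of its probes were brighter than 2 times the array median, compared with 13.4% to 20.3% on each of the remaining 19 arrays, and its mean signal of 140 lay below their range of 361 to 735. On all 5 arrays titled as 595sp resistant, the characteristics gave another time than the title, and on 3 of them another sensitivity. Groups were taken from the titles, which matched the descriptions on 20 of 20 arrays. All 19 arrays correlated best with an array of their own culture. Called changes of the resistant response against 0 h, and the difference of the responses, are also given without the 595sp resistant arrays. Results for the 595sp resistant culture alone, its level against the sensitive culture and the line differences that use it cannot be given without them. These take the titles as right. Of 8 plasma cell markers with a probe, 6 passed the filter, among them Mzb1 (mean log2 signal 14.26), Xbp1 (11.17) and Irf4 (8.86), while Tnfrsf17 and Jchain did not, and Sdc1 (6.99) and Prdm1 (6.47) stayed near the cut. Of 3 B cell markers with a probe 1, Cd79b, exceeded a mean log2 signal of 8, at 12.06. The same level was reached by 1 of 5 T cell markers with a probe (Cd3g, 7.31 to 11.08 over the arrays), 1 of 4 macrophage markers (Mpeg1, 6.79 to 10.32) and 0 of 3 erythroid and 0 of 4 stromal markers. Their part in the results below was not tested. In such bulk samples, a change in the share of cells with a transcript and a change in transcript per cell cannot be told apart.

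Promoter sequence was available for 8 of the 10 genes, all but Psmd3 and Psmd7, from RefSeq on the build GRCm38.p6, as 250 bases before and 50 bases after the annotated start. The promoters of Psmd1, Psmd4, Psmd12 and Psmd13 are shown, the members whose brightest probe was called against 0 h in the sensitive cultures. That of Psmd6, a lid subunit that was not called, is shown with them. Capitals mark matches on either strand to the motifs CCAAT (bound by NF-Y), TGACNNNGC (the antioxidant response element core, bound by CNC factors such as the one encoded by Nfe2l1), GAANNTTC (a pair of heat shock units) and CCGGAA (the core bound by ETS factors).
Psmd1, chr1:86064369-86064668, plus strand: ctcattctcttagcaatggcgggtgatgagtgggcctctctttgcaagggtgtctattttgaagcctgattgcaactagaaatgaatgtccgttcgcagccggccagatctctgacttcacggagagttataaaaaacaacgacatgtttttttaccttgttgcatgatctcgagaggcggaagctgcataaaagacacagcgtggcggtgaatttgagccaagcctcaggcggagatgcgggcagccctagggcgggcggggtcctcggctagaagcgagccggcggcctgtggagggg
Psmd4, chr3:95042565-95042864, minus strand: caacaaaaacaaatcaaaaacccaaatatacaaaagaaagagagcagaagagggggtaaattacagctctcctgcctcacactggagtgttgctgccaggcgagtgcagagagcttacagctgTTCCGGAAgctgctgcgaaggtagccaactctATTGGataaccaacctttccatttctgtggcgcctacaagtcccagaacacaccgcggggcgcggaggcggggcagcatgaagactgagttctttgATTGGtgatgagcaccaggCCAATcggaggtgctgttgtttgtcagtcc
Psmd12, chr11:107479278-107479577, plus strand: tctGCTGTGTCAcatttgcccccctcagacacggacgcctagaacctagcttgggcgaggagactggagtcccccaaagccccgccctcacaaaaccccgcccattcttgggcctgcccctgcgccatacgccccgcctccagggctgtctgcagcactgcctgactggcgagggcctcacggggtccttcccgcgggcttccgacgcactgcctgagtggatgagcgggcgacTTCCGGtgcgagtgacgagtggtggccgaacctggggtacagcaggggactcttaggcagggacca
Psmd13, chr7:140882144-140882443, plus strand: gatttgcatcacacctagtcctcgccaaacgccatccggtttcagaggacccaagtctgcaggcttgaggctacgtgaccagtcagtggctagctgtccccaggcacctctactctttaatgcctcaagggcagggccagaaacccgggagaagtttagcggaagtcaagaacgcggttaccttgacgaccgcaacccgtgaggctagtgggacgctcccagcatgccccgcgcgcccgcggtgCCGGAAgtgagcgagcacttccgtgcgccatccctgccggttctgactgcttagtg
Psmd6, chr14:14120896-14121195, minus strand: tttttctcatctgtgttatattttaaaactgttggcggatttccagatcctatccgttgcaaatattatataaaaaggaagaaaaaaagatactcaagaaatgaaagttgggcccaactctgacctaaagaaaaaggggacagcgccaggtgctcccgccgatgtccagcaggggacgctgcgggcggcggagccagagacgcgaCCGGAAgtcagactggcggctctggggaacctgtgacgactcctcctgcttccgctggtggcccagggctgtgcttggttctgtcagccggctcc
The search for CCGGAA was added after the sequences had been read. It was present in 6 of the 8 promoters (Psmd2, Psmd4, Psmd6, Psmd11, Psmd12 and Psmd13), against 14.9% of 32851 RefSeq promoters of this length. The antioxidant response element core was found in 1 of 8, that of Psmd12 at 247 bases before the start, against 12.4% of all promoters. CCAAT was found in 2 of 8, Psmd4 and Psmd14, each with 3 matches, a pair of which overlap in Psmd14, against 37.4%. GAANNTTC was found in 0 of 8, against 7.86%. In Psmd4, the pair of ETS cores overlap as TTCCGGAA. The Psmd1 window shown above held none of these motifs, and the Psmd6 window held the ETS core. A match is a description of these letters only.

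Values below are log2 signals after background correction and quantile normalisation, on which a difference of 1 is a factor of 2. A change was called where the Benjamini-Hochberg adjusted p of limma, over all kept probes, was under 0.05. A gene is represented by its kept probe with the highest mean signal.

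Among the base subunits, Psmd4, which binds the ubiquitin chain of a substrate as a receptor, had the smallest adjusted p-values in the sensitive cultures at 8, 16 and 24 h. In 589bm sensitive cells its log2 signal was 12.42 at 0 h, 12.72 at 2 h, 13.40 at 8 h, 14.21 at 16 h and 13.99 at 24 h. In 595sp sensitive cells it was 11.94, 12.06, 13.15, 13.29 and 13.62 at the same times. All 6 sensitive arrays from 8 h on lay above all 4 earlier ones. In 589bm resistant cells Psmd4 was at 12.34 at 0 h, 13.54 at 8 h, 13.83 at 16 h and 13.60 at 24 h. In 595sp resistant cells it went from 12.54 at 0 h and 12.63 at 2 h to 12.86, 12.90 and 13.21. Late and early arrays did not overlap in either resistant culture, but the 595sp resistant culture covered the smallest range of the 4. The mean rise against 0 h in the sensitive cultures was 1.10 at 8 h (SE 0.22, adjusted p = 0.0118), 1.57 at 16 h (adjusted p = 0.000303) and 1.63 at 24 h (adjusted p = 0.000157). In the resistant cultures the change of 0.76 at 8 h did not pass (adjusted p = 0.216), and the rises of 0.93 at 16 h (adjusted p = 0.0482) and 0.96 at 24 h (adjusted p = 0.0406) did.

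Psmd1, a large scaffold of the base, followed a similar course. Its log2 signal in 589bm sensitive cells was 12.53, 12.62, 13.35, 14.04 and 13.86 at 0, 2, 8, 16 and 24 h. In 595sp sensitive cells it was 12.76, 13.01, 13.51, 13.70 and 13.67. The 589bm resistant culture had 12.79 at 0 h and 13.82, 14.17 and 13.87 at 8, 16 and 24 h. All 3 cultures thus had late arrays above every early array, with the highest value at 16 h. In the 595sp resistant culture the values were 12.83, 12.71, 13.39, 13.49 and 13.22, again with no overlap and the highest at 16 h. In the sensitive cultures Psmd1 rose by 0.79 at 8 h (SE 0.20, adjusted p = 0.0484), 1.23 at 16 h (adjusted p = 0.000964) and 1.12 at 24 h (adjusted p = 0.00131). In the resistant cultures it rose by 1.02 at 16 h (adjusted p = 0.016), while the changes of 0.80 at 8 h (adjusted p = 0.137) and 0.74 at 24 h (adjusted p = 0.0864) did not pass. Psmd1 had 2 more probes. One of mean 13.20 tracked the first (r = 0.98 over 19 arrays centred within cultures) and was called at the same 4 times. The other, of mean 9.54, was called at 24 h in the sensitive cultures (1.18) and at 8 h (1.37) and 24 h (1.33) in the resistant ones.

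Psmd2, the other large scaffold of the base and a docking site for ubiquitin shuttle proteins, had a different time course. In 589bm resistant cells it read 6.66 at 0 h, 7.70 at 8 h, 8.54 at 16 h and 7.78 at 24 h. In 595sp resistant cells it read 7.54, 7.20, 8.12, 8.47 and 7.59 at 0, 2, 8, 16 and 24 h. Both resistant cultures were highest at 16 h, and in 595sp the 24 h array had come back to within 0.04 of the 0 h array. The sensitive cultures differed from each other, with 7.56, 7.16, 7.94, 7.48 and 7.68 in 589bm and 7.42, 7.33, 8.02, 8.51 and 7.32 in 595sp. Psmd2 rose by 1.40 at 16 h in the resistant cultures (SE 0.29, adjusted p = 0.0238) and was not called at any other time, with changes of 0.48, 0.50 and 0.01 at 8, 16 and 24 h in the sensitive cultures. The representing Psmd2 probe had a mean of 7.69. Its lowest array, 589bm resistant at 0 h (6.66), lay near the filter's cut of 6.47. The second Psmd2 probe, of mean 7.01, was not called at any time.

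**Figure D1:**
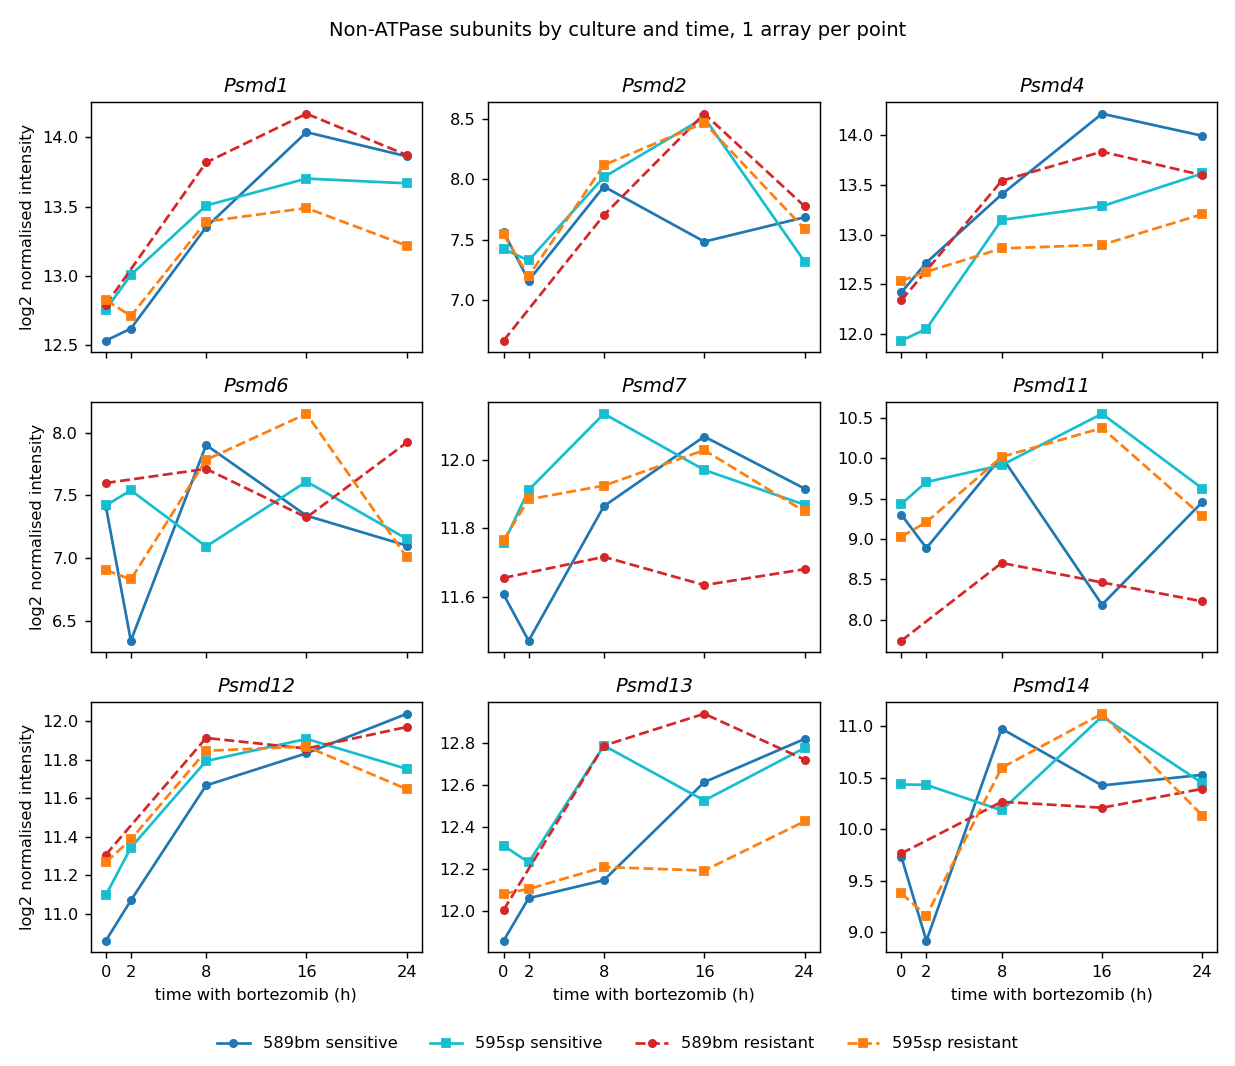
Log2 normalised signal (y axis) against hours of bortezomib (x axis) for the representing probe of the 9 tested members, with 1 array per point and 1 line per culture; the y axes differ between panels and do not start at 0. Psmd1, Psmd4, Psmd12 and Psmd13 had every array from 8 h on above every earlier array in all 4 cultures, as did 3.66% of all genes. The 589bm resistant culture had only 1 earlier array. Psmd6, Psmd11 and Psmd14 moved up and down within cultures.

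Of the lid subunits, Psmd12 gave the most uniform course. Its log2 signals at 0, 2, 8, 16 and 24 h were 10.86, 11.07, 11.67, 11.83 and 12.04 in 589bm sensitive cells and 11.10, 11.34, 11.79, 11.91 and 11.75 in 595sp sensitive cells. In 589bm resistant cells they were 11.31 at 0 h and 11.91, 11.86 and 11.97 at 8, 16 and 24 h. In 595sp resistant cells they were 11.27, 11.39, 11.85, 11.87 and 11.65. No late array overlapped an early one in any culture, and every late array lay between 11.65 and 12.04. Psmd12 rose by 0.75, 0.89 and 0.92 at 8, 16 and 24 h in the sensitive cultures (SE 0.17, adjusted p = 0.0255, 0.00301 and 0.00179). The resistant changes of 0.59, 0.58 and 0.52 did not pass (adjusted p = 0.209, 0.111 and 0.166). A second Psmd12 probe, of mean 7.92, changed by 0.02, 0.15 and -0.35 in the sensitive cultures and by 1.06, 1.09 and 0.40 in the resistant ones, none of them called, so the calls for Psmd12 rest on 1 of its 2 probes (r = 0.42 between them). The mean of both probes was not called, with changes of 0.38, 0.52 and 0.28 in the sensitive cultures (adjusted p = 0.527, 0.207 and 0.513).

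Psmd13, another lid subunit, had 1 probe. In 589bm sensitive cells it was at 11.86, 12.06, 12.15, 12.61 and 12.82 at the successive times, and in 595sp sensitive cells at 12.31, 12.23, 12.79, 12.53 and 12.78. The resistant cultures gave 12.004 at 0 h and 12.79, 12.94 and 12.72 later in 589bm, and 12.08, 12.10, 12.21, 12.19 and 12.43 in 595sp. The late arrays were higher than the early ones within each culture, by little in 595sp resistant cells. Psmd13 rose by 0.71 at 24 h in the sensitive cultures (SE 0.21, adjusted p = 0.031). Its resistant changes of 0.45, 0.52 and 0.53 at 8, 16 and 24 h were not called.

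Psmd14 encodes the deubiquitinase of the lid. Its log2 signals at 0, 2, 8, 16 and 24 h were 9.74, 8.92, 10.98, 10.43 and 10.53 in 589bm sensitive cells and 9.38, 9.16, 10.60, 11.12 and 10.13 in 595sp resistant cells. In these cultures all late arrays exceeded the early ones. In 589bm resistant cells the values were 9.77 at 0 h and 10.27, 10.21 and 10.39 later. In 595sp sensitive cells they were 10.44, 10.43, 10.19, 11.10 and 10.45, so that the 8 h array was the lowest and the 16 h array alone stood out. Against 0 h, Psmd14 changed by 0.49, 0.68 and 0.40 at 8, 16 and 24 h in the sensitive cultures (SE 0.38) and by 0.86, 1.09 and 0.69 in the resistant ones, with no call. Its other probe, of mean 9.53, had a change of -0.41 at 24 h in the sensitive cultures and 1.29 at 16 h in the resistant ones, also without a call.

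Psmd7, which pairs with the deubiquitinase in the lid, varied least: its 19 arrays lay between 11.47 and 12.13, with a standard deviation of 0.14 within cultures. The changes of its representing probe were 0.32, 0.34 and 0.21 at 8, 16 and 24 h in the sensitive cultures (SE 0.16) and 0.11, 0.12 and 0.05 in the resistant ones, none called. Another Psmd7 probe, of mean 8.38, rose by 0.91 at 16 h (adjusted p = 0.0123) and by 0.82 at 24 h (adjusted p = 0.0178) in the sensitive cultures. The probes of Psmd7 thus disagreed on the call, and their profiles correlated with r from 0.33 to 0.63.

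Psmd11, a lid subunit that contacts the core particle, and Psmd6, a lid subunit, were not called at any time. Psmd11 was at 9.30, 8.89, 10.02, 8.19 and 9.46 in 589bm sensitive cells, and the 16 h array was the lowest of that culture. In 595sp sensitive cells it was at 9.43, 9.71, 9.91, 10.55 and 9.62, with the 16 h array the highest. Its 16 h change in the sensitive cultures was therefore 0.00, the mean of a lower and a higher array than at 0 h (SE 0.39). The 595sp resistant culture had 9.03, 9.21, 10.02, 10.37 and 9.28 and the 589bm resistant culture 7.74, 8.70, 8.46 and 8.23, and the resistant changes were 0.98, 1.03 and 0.37. Psmd6 ranged from 6.34 to 8.15 over the 19 arrays and changed by 0.08, 0.06 and -0.29 in the sensitive cultures and by 0.50, 0.49 and 0.21 in the resistant ones (SE 0.38). Psmd3, a lid subunit below the filter, had changes against 0 h between -0.11 and 0.21 at 8, 16 and 24 h when all probes were fitted (SE 0.20), none called. A signal this low does not show whether Psmd3 changed.

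Counted together, 0 of 9 members were called at 2 h in the sensitive cultures, where 0% of all genes were called higher, and in the resistant cultures, where the 2 h contrast rests on 595sp alone and 0% of all genes were called higher. At an unadjusted p under 0.05, 0 members and 242 and 207 genes of 11802 passed at 2 h. At 8 h in the sensitive cultures 3 of 9 members rose (Psmd1, Psmd4 and Psmd12), against 1.53% of all genes. At 16 h the same 3 members rose, against 5.82%, and at 24 h 4 of 9 rose, with Psmd13 added, against 8.24%. No member was called lower at 8, 16 or 24 h, against 1.03%, 4.74% and 6.24% of all genes. In the resistant cultures 0 of 9 members were called at 8 h, against 0.127% of all genes, although 7 of 9 had an unadjusted p under 0.05, as did 10.5% of genes. At 16 h, 3 of 9 rose (Psmd1, Psmd2 and Psmd4), against 0.635%, and at 24 h 1 of 9 (Psmd4), against 0.864%. None was called lower at these times, against 0.0763%, 0.695% and 0.551%. The median change of the 9 members at 8, 16 and 24 h was 0.49, 0.50 and 0.40 in the sensitive cultures and 0.76, 0.93 and 0.53 in the resistant ones, while the median of all genes lay between -0.01 and 0.02.

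**Figure D2:**
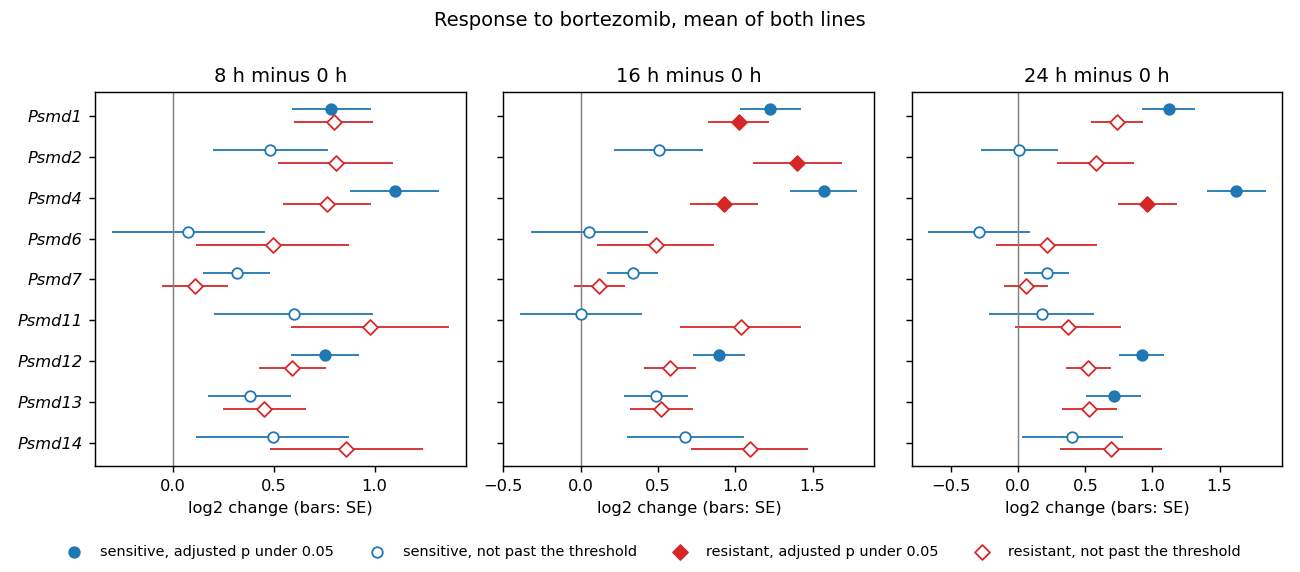
Log2 change against 0 h (x axis) at 8, 16 and 24 h for each tested member, as the mean of both lines, in sensitive (circles) and resistant cultures (diamonds); bars are standard errors and filled symbols have an adjusted p under 0.05. Psmd1, Psmd4 and Psmd12 are filled at all 3 times in the sensitive cultures, and Psmd13 at 24 h. In the resistant cultures Psmd1, Psmd2 and Psmd4 are filled at 16 h, and Psmd4 at 24 h.

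These counts depended on single arrays and on the scaling. Without the 0 h array of either sensitive culture, or without the 595sp 8 h array, no member was called at 8 h in the sensitive cultures, while at 24 h 2 to 4 members and at 16 h 2 or 3 members stayed called over the 19 fits that each left out 1 array. Psmd1 and Psmd4 were called at 16 and 24 h in all 19. The call of Psmd1 at 8 h was kept in 9 of 19 fits, and that of Psmd13 at 24 h in 15 of 19, lost without either 0 h or either 24 h sensitive array. Without the 589bm sensitive 24 h array, which also ended the call of Psmd12, the 24 h count was 2. Without the 589bm resistant 0 h array, the 589bm resistant 16 h array or the 595sp resistant 16 h array, none was called at 16 h in the resistant cultures, and the resistant calls of Psmd4 were kept in 6 of 19 fits at 16 h and 10 of 19 at 24 h. Without all 595sp resistant arrays, the resistant response rests on 589bm alone and 0 members were called in it at 16 and 24 h, although its changes were larger: 1.38 for Psmd1, 1.80 for Psmd2 and 1.501 for Psmd4 at 16 h (adjusted p = 0.129, 0.136 and 0.123) and 1.26 for Psmd4 at 24 h (adjusted p = 0.219). In the sensitive response at 8 h 1 member, Psmd4, was then called, with Psmd1 at 0.78 and Psmd12 at 0.75 (adjusted p = 0.116 and 0.109), close to their changes with all 19 arrays. Without the culture as a block, 0 members were called at 8, 16 or 24 h in the sensitive response and at 16 or 24 h in the resistant one. With the arrays only scaled to a common median, Psmd4 was still called at 16 and 24 h in the sensitive cultures, with rises of 1.06 and 1.16, and no other member was called in either response at any time. Under that scaling, all kept probes had a median change of -0.15 at 16 h and -0.10 at 24 h in the sensitive cultures, and the share of higher among all called probes fell from 52.2% to 12.1% at 16 h and from 52.8% to 18.6% at 24 h. The 1453 probes of mean log2 signal above 11, where Psmd1, Psmd4, Psmd12 and Psmd13 lie, had a median change of -0.48 and -0.44 at these times, against -0.03 after quantile normalisation. The array's mean signal moved with time as well, from 523 to 638 on the 4 early sensitive arrays to 377 to 565 on the 6 late ones, and its part in the results was not tested.

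**Figure D3:**
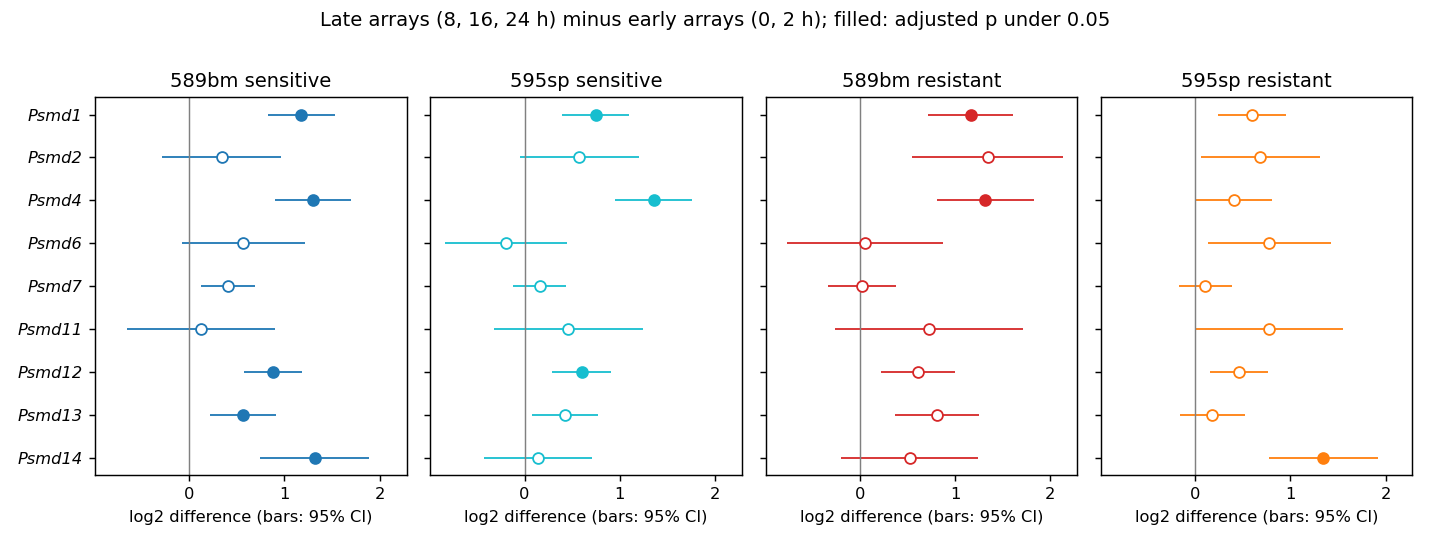
Log2 difference of the 8, 16 and 24 h arrays from the 0 and 2 h arrays (x axis) in each culture; bars are 95% confidence intervals from the spread over times pooled over the 4 cultures, and filled symbols have an adjusted p under 0.05. Psmd4 differed by 1.30 to 1.35 in 3 cultures and by 0.41 in 595sp resistant cells, and Psmd14 is filled in 589bm sensitive and 595sp resistant cells.

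Each culture was also taken on its own, as the mean of its 8, 16 and 24 h arrays minus the mean of its 0 and 2 h arrays, so that times stand in for replicates and p measures their spread, pooled over the 4 cultures. In 589bm sensitive cells 5 of 9 members were higher late (Psmd1, Psmd4, Psmd12, Psmd13 and Psmd14), against 5.09% of all genes. In 595sp sensitive cells 3 were (Psmd1, Psmd4 and Psmd12), against 5.21%. In 589bm resistant cells, with the 0 h array as the only early one, 2 were (Psmd1 and Psmd4), against 0.288%, and in 595sp resistant cells 1 was (Psmd14), against 0.686%. By plain order, late arrays lay above all early ones for 6 of 9 members in 589bm sensitive cells (17.2% of all genes), 4 in 595sp sensitive cells (22.4%), 7 in 589bm resistant cells (28%) and 8 in 595sp resistant cells (16.6%). Psmd1, Psmd4, Psmd12 and Psmd13 did so in all 4 cultures, as did 3.66% of all genes, a count that was added after the values had been seen.

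Psmd4 was higher late by 1.30 in 589bm sensitive (SE 0.19, adjusted p = 0.00017), 1.35 in 595sp sensitive (adjusted p = 0.000166) and 1.32 in 589bm resistant cells (SE 0.25, adjusted p = 0.0172). In 595sp resistant cells the difference was 0.41 (SE 0.19, adjusted p = 0.367). The difference between the resistant cultures, 595sp minus 589bm, was -0.91 with a 95% interval of -1.56 to -0.26, which did not pass over all probes (adjusted p = 0.932). Psmd14 had a difference of 1.32 in 589bm sensitive cells (SE 0.27, adjusted p = 0.00376) and 1.35 in 595sp resistant cells (adjusted p = 0.0125), against 0.14 in 595sp sensitive and 0.52 in 589bm resistant cells, neither called. Between the sensitive cultures, 595sp minus 589bm, the Psmd14 difference was -1.18 with an interval of -1.98 to -0.37 (adjusted p = 0.387). No member was called in either test of a line difference, with 0.144% of all genes called among the sensitive and 0% among the resistant cultures. Unadjusted, 1 member among the sensitive and 2 among the resistant cultures had p under 0.05, against 8.36% and 5.08% of all genes. The calls in the 589bm resistant culture were lost without its 16 h array. They were also lost without the 595sp resistant arrays, which are not part of that contrast, at unchanged differences of 1.16 for Psmd1 (adjusted p = 0.0542) and 1.32 for Psmd4 (adjusted p = 0.0534). The call of Psmd14 was lost in 589bm sensitive cells without the 2 h array and in 595sp resistant cells without its 0 h, 2 h or 16 h array. The call of Psmd13 in 589bm sensitive cells (0.57, SE 0.17, adjusted p = 0.0364) was kept in 11 of 19 such fits. In 595sp sensitive cells, 1 member was called without the 0 h array.

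The response of the resistant cultures was set against that of the sensitive ones through an interaction over 8, 16 and 24 h. No member passed, and 0.11% of all genes did. Psmd4 had the smallest p of the members: its mean response was lower in the resistant cultures by a log2 value of -0.55, with a 95% interval of -1.08 to -0.02 (adjusted p = 0.444; 1 member and 11.8% of genes had an unadjusted p under 0.05). Without the 595sp resistant arrays the Psmd4 difference was -0.12 (adjusted p = 0.943) and that of Psmd2 0.96 (adjusted p = 0.69). Psmd2 differed the other way, by 0.60 with an interval of -0.10 to 1.29. For Psmd1 the difference was -0.19 (-0.67 to 0.28), for Psmd12 -0.29 (-0.70 to 0.12) and for Psmd13 -0.02 (-0.53 to 0.48). The intervals of Psmd6, Psmd7, Psmd11 and Psmd14 also contained 0. Intervals of this width do not show that the responses were alike.

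Levels of resistant and sensitive cultures were also compared within each line, with the time point as a factor, so that p measures the spread over times of 1 pair of cultures. In 589bm, Psmd11 was lower in the resistant culture by a mean of -0.96 (SE 0.23, adjusted p = 0.0105). Here 1 of 9 members was called lower, which is near the share of 9.33% of all genes. At an unadjusted p under 0.05, 1 member and 33.3% of all genes passed within 589bm. By time, the resistant minus sensitive difference of Psmd11 was -1.56 at 0 h, -1.32 at 8 h, 0.28 at 16 h and -1.23 at 24 h. The low sensitive 16 h array was thus the exception. A second Psmd11 probe gave -0.43 (adjusted p = 0.0707). In 595sp the Psmd11 difference was -0.26 (adjusted p = 0.151). The 589bm call of Psmd11 was lost without the 8 h array of either culture. In 589bm the Psmd1 probe of mean 9.54 was also lower in the resistant culture, by -0.69 (adjusted p = 0.00607). The representing Psmd1 probe went the other way, at 0.22, and was not called (adjusted p = 0.215).

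In 595sp, Psmd13 was lower in the resistant culture by a mean of -0.32 (SE 0.09, adjusted p = 0.0336). Again 1 of 9 members was called lower, near the share of 11.3% of all genes. At an unadjusted p under 0.05, 2 members and 33.6% of all genes passed within 595sp. The Psmd13 difference was -0.23, -0.13, -0.58, -0.33 and -0.35 at 0, 2, 8, 16 and 24 h, below 0 at every time. In 589bm it was 0.25 (adjusted p = 0.213), with values of 0.15, 0.64, 0.33 and -0.10 at 0, 8, 16 and 24 h. The difference between the lines, -0.58 (SE 0.18, adjusted p = 0.024), passed a test added after these values had been seen. In that test 1 of 9 members was called lower, which is near the share of 12.8% of all genes. At an unadjusted p under 0.05, 2 of 9 members and 35% of all genes passed it. With median scaling the difference between the lines was -0.15 (adjusted p = 0.739). The 595sp call was kept in 2 of 10 fits that left out 1 array, those without a 2 h array, and it was lost under median scaling, where the difference was -0.11.

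**Figure D4:**
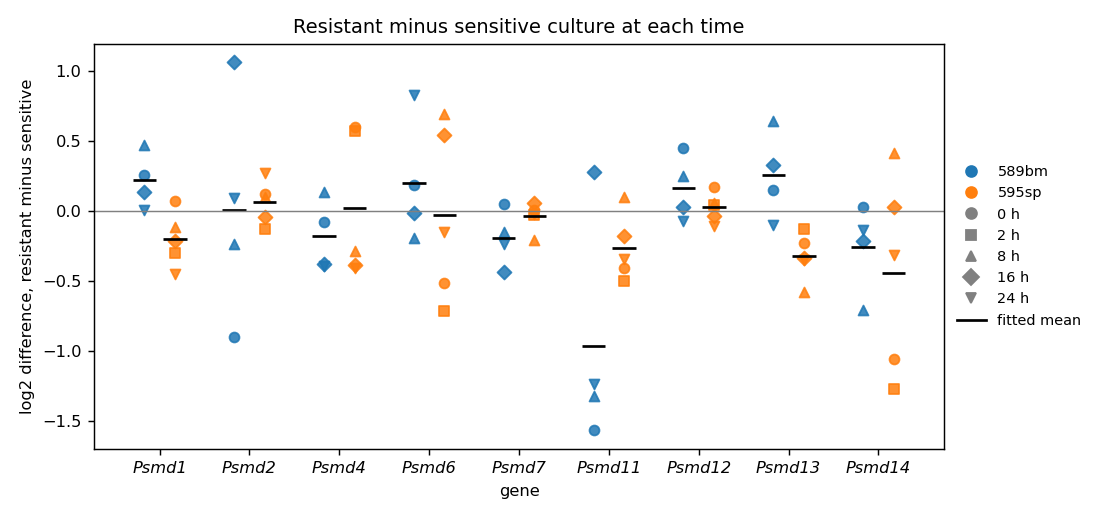
Log2 signal of the resistant minus the sensitive culture (y axis) at each time, for each tested member (x axis) in 589bm (blue) and 595sp (orange); symbols give the time and bars the fitted mean over times. Psmd11 in 589bm lay below 0 at 3 of 4 times, and Psmd13 in 595sp at all 5.

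The members did not all move alike from array to array. With each culture centred on its own mean, the 36 pairs among the 9 tested members had Pearson correlations over 19 arrays with a median of 0.60, from -0.10 for Psmd6 with Psmd13 to 0.94 for Psmd1 with Psmd12. Psmd1 with Psmd4 (0.94) and Psmd4 with Psmd13 (0.91) were close, and Psmd6 with Psmd14 (0.85) formed another close pair. Psmd4 with Psmd6 stood at 0.06 and Psmd11 with Psmd13 at 0.12. These arrays share the same times and cultures, and the correlations are descriptions. Over the 36 profiles of 9 members in 4 cultures, the highest value fell at 16 h in 20, at 8 h in 8 and at 24 h in 8, and at 0 or 2 h in 0.

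Outside the group, the 5 genes whose culture-centred profile was most like the members' mean were Hsp90aa1 (r = 0.96), which encodes a cytosolic chaperone, Otud5 (0.95) and Usp3 (0.95), which encode deubiquitinases, Cops5 (0.95), the deneddylase of the COP9 signalosome, and Nsfl1c (0.93), which encodes a cofactor of Vcp. At 24 h Hsp90aa1 had changed by 0.78 in the sensitive and 0.97 in the resistant cultures.

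Other proteasome genes, from lists chosen with earlier results of these data known, were set beside the members at 24 h in the sensitive cultures. At that time 8.24% of all genes were called higher and 6.24% lower. Of the 6 ATPases of the regulatory particle, 4 rose, led by Psmc3 (1.41) and Psmc4 (1.22), with a list median of 1.03 against 0.40 for the members. Of 7 tested beta ring subunits of the core, 6 rose, among them Psmb2 (0.99) and Psmb3 (0.89), and of 4 alpha ring subunits tested 2 did, Psma7 (0.89) and Psma5 (0.67). Nfe2l1 (0.99) and Vcp (0.99), an ATPase that acts on ubiquitinated proteins and in the processing of the Nfe2l1 protein, both rose among 3 tested genes of that list. None of 7 other regulatory particle genes was called at 24 h, with a median of 0.18, and Psmd5, a chaperone of its assembly, rose at 16 h (0.98). Of 6 assembly and activator genes 1 rose, Psme4 (1.16). The immunoproteasome list went the other way: 3 of 5 genes fell, with changes of -1.08 for Psmb8 and -0.84 for Psmb9, the largest falls of the list.

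In the resistant cultures at 24 h, 3 of 6 ATPases rose, with Psmc3 at 1.003 and Psmc5 at 0.89, and 2 of 7 beta ring subunits, Psmb6 (0.92) and Psmb3 (0.79). Nfe2l1 (0.92) and Psme4 (0.99) rose as well, Psmb8 fell by 0.81 on the log2 scale, and no alpha ring gene or other regulatory particle gene was called. Among all genes 0.864% were called higher and 0.551% lower. No list had a member called in the interaction of sensitivity and response.

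**Figure D5:**
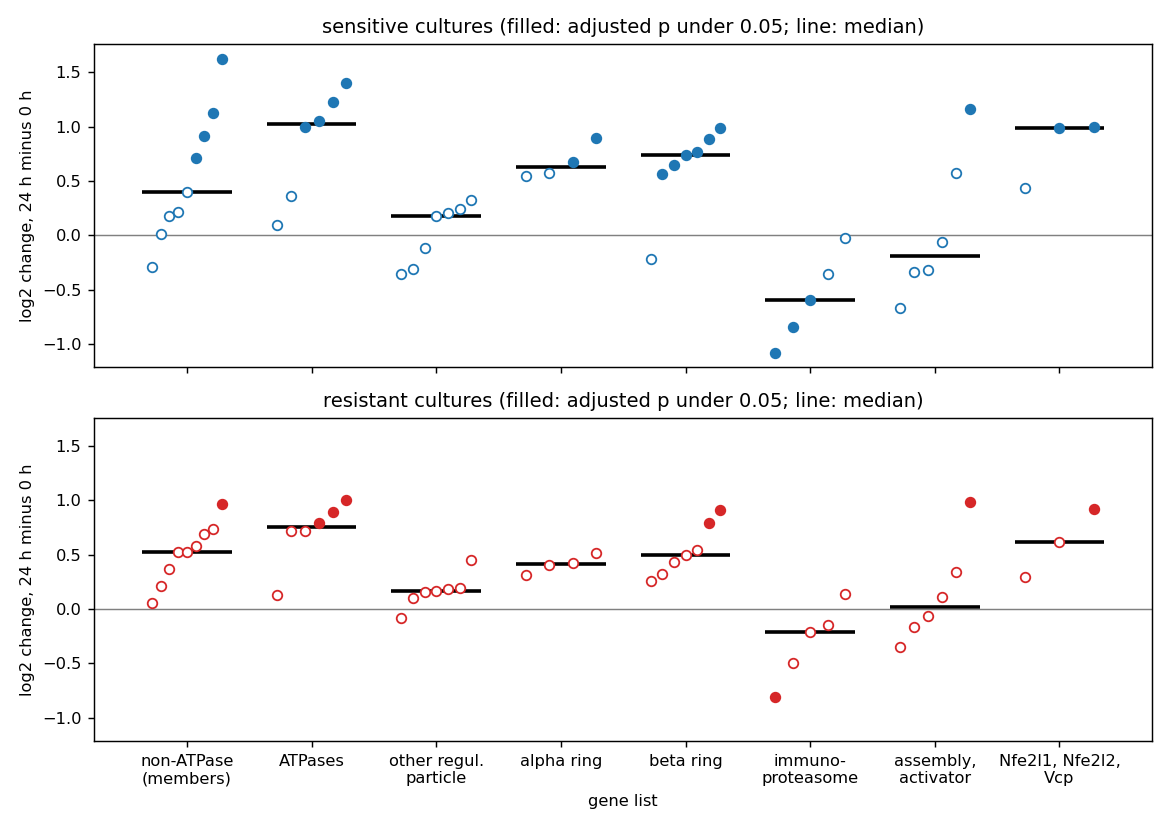
Log2 change at 24 h against 0 h (y axis) of each tested gene of 8 lists (x axis) in sensitive (top) and resistant cultures (bottom), with 1 point per gene, filled where the adjusted p was under 0.05, and a line at the list's median. The non-ATPase subunits spread from -0.29 to 1.63 in the sensitive cultures, where the 5 immunoproteasome genes lay below 0; in the resistant cultures 1 of these 5 lay above 0.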

How the data were processed

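Total RNA was measured on Illumina mouse arrays, 1 colour, with biotin label, per the labels. The deposited non-normalized table holds signal intensity for 45281 probes on 20 arrays, per the file headers, with no detection p-values. The deposited series matrix holds the same arrays as intensity on a linear scale that the authors had quantile-normalized, as all columns share the same sorted values. Matched by title, the columns of both tables had rank correlations of 1. The sources used here do not give the software, the background handling or the scanner settings. There were 0 unused columns of samples.

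The intensities were corrected by normexp (offset 50), turned into log2 values and quantile-normalized over 19 arrays (R 4.3.3, limma 3.58.1). A filter kept the brighter 50% of probes by mean signal, 22641 in all. Precision is limited by how many arrays there are. Symbols came from the platform annotation, updated by Entrez number for 34807 probes; 34885 probes had 1 symbol, 18 several and 10378 none. A gene stood for its kept probe of highest mean signal. Tests used lmFit and eBayes with an intensity trend and Benjamini-Hochberg adjustment at 0.05 over all kept probes. Background shares count 11802 genes. Responses came from culture as a block plus sensitivity by time (7 residual degrees of freedom), levels from time plus sensitivity within a line, and late minus early from culture by phase (11 residual degrees of freedom). The culture was kept as the block, as 19 of 19 arrays correlated best with an array of their own culture. That check does not bear on which resistant culture belongs with which sensitive one. The line was taken from the titles. Separate cultures per array are not stated, so p-values measure the spread between these arrays.

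All 10 members are named. The members, the lists, the tests and the rule for named genes (all members, up to 2 largest passing genes per list, the 5 genes of most similar profile) were chosen with earlier results of these data known. Alternatives were median scaling, no background correction, an offset of 16, no filter, the series matrix values, all 20 arrays, the mean of a gene's probes, no block and leaving out each array. The fits were also run on simulated data with independent noise and the same change in both sensitive cultures. Such data do not show how the fits behave where the lines differ or the signal of whole arrays shifts.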

Additional observations from a re-analysis of the deposited data

Results flagged for a closer look

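Psmd13 differed between the lines in the contrast of resistant with sensitive cultures. The resistant minus sensitive level was -0.32 in 595sp and 0.25 in 589bm, and the difference between the lines was -0.58 on the log2 scale (SE 0.18, limma adjusted p = 0.024 over all probes, 19 arrays), in a test added after the values had been seen. Leaving out 1 array gave -0.68 to -0.49 and kept the call in 14 of 19 fits. With median scaling the difference was -0.15 (adjusted p = 0.739), and Psmd4 was the called member of this contrast instead (0.67, adjusted p = 0.0421). Under that scaling 3702 probes were called higher in this contrast and 891 lower, against 2318 and 2257 after quantile normalisation. With all 20 arrays the Psmd13 difference reversed to 0.54 (adjusted p = 0.759). In this contrast 1 of 9 members was called lower, which is near the share of 12.8% of all genes. At an unadjusted p under 0.05, 2 of 9 members and 35% of all genes passed. The contrast uses the 595sp resistant arrays, whose characteristics disagree with their titles. The call was lost without the 589bm sensitive 8 h array and without the 8 h or 16 h array of either resistant culture. All 4 cultures were single cultures, and the p-value measures the spread over their times.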

How the results depend on the processing

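Another offset changed no call among 162 member values, and no background correction, no filter on dim probes and the series matrix values each ended 2 calls. Without the filter, 0 members were called within 595sp. Median scaling left 0, 1 and 1 members called at 8, 16 and 24 h in the sensitive response, 0 at 16 and 24 h in the resistant response, 2, 1, 0 and 0 for late minus early in 589bm sensitive, 595sp sensitive, 589bm resistant and 595sp resistant cells, 3 within 589bm (Psmd4 -0.46 and Psmd14 -0.51 added), 0 within 595sp, and 2 members with late arrays above early ones in all 4 cultures. Within 589bm, that scaling called 3573 of all kept probes lower and 813 higher, against 1980 and 1913 after quantile normalisation. With all 20 arrays, the blank one included, the counts were 0 at 8, 16 and 24 h in the sensitive and 0 at 16 and 24 h in the resistant response, 0, 0, 1 and 0 for the late minus early comparisons in the same order, and 0 within 589bm and for the line difference of resistant minus sensitive, where Psmd13 reversed to 0.54 (adjusted p = 0.759). In the fit with no replicate block, which sets the culture pairing aside, 0 members were called at 8, 16 and 24 h in the sensitive response, 0 at 16 and 24 h in the resistant response and 0 within either line. The mean of a gene's probes gave 1 and 2 calls at 8 and 24 h in the resistant response and 2 late minus early in 595sp resistant cells (Psmd1 0.63 and Psmd12 0.90), and it added Psmd7 at 16 h in the sensitive response (0.60). It ended the calls of Psmd12 at 8, 16 and 24 h in the sensitive response (0.38, 0.52 and 0.28) and late minus early in 595sp sensitive cells (0.24), and those of Psmd14 late minus early in 589bm sensitive and 595sp resistant cells (1.05 and 1.37, adjusted p = 0.0761 and 0.0604), 6 calls lost against 5 gained. Without the arrays titled 595spVR, an alternative chosen after seeing the data, 1 member was called at 8 h in the sensitive response, 0 at 16 and 24 h in the resistant one and 0 late minus early in 589bm resistant cells. The cause of these changes was not tested. Leaving out 1 array gave 0 to 3, 2 to 3 and 2 to 4 calls at 8, 16 and 24 h in the sensitive response, 0 to 4 and 0 to 1 at 16 and 24 h in the resistant response, 3 to 6, 1 to 3, 0 to 3 and 0 to 2 for late minus early in the same order, 0 to 1 within each line, 0 to 3 for the line difference of resistant minus sensitive, and 4 to 5 members above in all 4 cultures; the other counts stayed at 0. Psmd11 at 16 h in the sensitive response was 1.06 without the 589bm sensitive 16 h array and reversed to -1.06 (adjusted p = 0.026) without the 595sp one. Probes near the background, such as those of Psmd3 and Psmd6, limit what can be seen.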
